A study of Homo sapiens with 18 samples.

Results

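The genes described here encode 10 surface ligands by which a tumor or epithelial cell is read by T cells, phagocytes and natural killer (NK) cells, out of 18475 genes in the table: CD274, CD47, TNFSF9, PVR, NECTIN2, MICA, MICB, ULBP1, ULBP2 and ULBP3. They were chosen by name, all 10 were found by their Entrez numbers, and the rule that names them uses no measured value. Their mRNA was measured by RNA-seq in 3 human cell lines: BEAS-2B, an immortalized bronchial epithelial line, A549, a lung adenocarcinoma line, and H446, a line labelled as small cell lung cancer. Each line had 3 control libraries and 3 libraries from cells given 10 Gy of X-rays and harvested 24 h later, 18 libraries in all. The study asked how the response to radiation differs between lung epithelial and lung cancer cells. All samples are labelled wild type. The labels call the controls "before", and do not give their time of harvest. Each line stands for its tissue by a single established line grown without immune cells, and nothing in the labels says whether replicates were separate cultures, so p-values measure only the spread between these libraries.

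PD-L1, the product of CD274, binds PD-1 on T cells and restrains them, and CD47 binds SIRP-alpha on phagocytes and signals against engulfment. TNFSF9 encodes the ligand of CD137, which costimulates T cells and NK cells. PVR (CD155) and NECTIN2 (CD112) are read by the activating receptor DNAM-1 and by the inhibitory receptor TIGIT, whereas MICA, MICB and the ULBP proteins are ligands of NKG2D, the receptor by which NK cells and CD8 T cells recognize stressed cells.

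The promoters of MICA and MICB are shown because these neighbouring paralogs moved in opposite directions in A549 cells, those of CD274 and ULBP1 because their mRNAs fell most in that line, and that of TNFSF9 because its mRNA rose most among the ligands. Each is the 250 bases before the start site that RefSeq gives on GRCh38.p14, on the plus strand, with the start site after the last base. Capitals mark a heat shock element (GAANNTTC), a GC box (GGGCGG, or CCGCCC where it lies on the other strand) or, in ULBP1, a match to the NF-kB motif. MICA lies at chr6:31403345-31403594 and MICB at chr6:31497895-31498144, both inside the RefSeq gene interval, which begins further upstream, CD274 at chr9:5450292-5450541, ULBP1 at chr6:149963693-149963942 and TNFSF9 at chr19:6530776-6531025.
MICA: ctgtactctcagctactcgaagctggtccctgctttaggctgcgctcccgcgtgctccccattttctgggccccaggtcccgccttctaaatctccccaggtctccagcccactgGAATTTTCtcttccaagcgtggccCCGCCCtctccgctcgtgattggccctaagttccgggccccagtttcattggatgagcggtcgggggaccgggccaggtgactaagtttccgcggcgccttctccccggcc
MICB: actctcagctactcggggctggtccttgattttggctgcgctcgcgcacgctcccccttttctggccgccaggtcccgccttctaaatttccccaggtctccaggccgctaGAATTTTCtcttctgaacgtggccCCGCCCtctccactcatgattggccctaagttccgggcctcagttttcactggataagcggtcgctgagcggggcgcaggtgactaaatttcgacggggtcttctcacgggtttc
CD274: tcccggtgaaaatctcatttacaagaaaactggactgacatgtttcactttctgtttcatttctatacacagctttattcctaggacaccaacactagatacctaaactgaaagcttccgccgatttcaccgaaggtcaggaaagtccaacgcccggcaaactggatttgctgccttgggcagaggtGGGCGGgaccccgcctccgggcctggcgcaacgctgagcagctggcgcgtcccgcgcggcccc
ULBP1: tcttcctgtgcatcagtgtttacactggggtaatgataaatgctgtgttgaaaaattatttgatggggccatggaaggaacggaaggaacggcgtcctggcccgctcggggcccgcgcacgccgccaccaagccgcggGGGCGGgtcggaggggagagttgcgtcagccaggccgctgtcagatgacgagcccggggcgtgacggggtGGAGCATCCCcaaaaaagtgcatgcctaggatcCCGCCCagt
TNFSF9: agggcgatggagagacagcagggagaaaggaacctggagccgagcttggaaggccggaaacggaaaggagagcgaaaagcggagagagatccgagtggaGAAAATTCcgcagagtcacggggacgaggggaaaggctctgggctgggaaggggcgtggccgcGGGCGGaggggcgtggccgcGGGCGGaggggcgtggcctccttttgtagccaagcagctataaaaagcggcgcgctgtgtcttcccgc
Over 254 aligned columns the MICA and MICB promoters were 82.7% identical, and both hold the same heat shock element, GAATTTTC, at -135 to -128 in MICA and -139 to -132 in MICB. TNFSF9 holds a heat shock element at -151 to -144. This motif, searched on both strands, occurs in 5.8% of 35116 RefSeq promoters of the same length. The GC box was found in 9 of the 10 ligand promoters, all except PVR, and in 42.6% of all promoters. A match to the NF-kB motif occurs in ULBP1 at -42 to -33 and in ULBP3 at -117 to -108, and in 10.0% of all promoters. The other motifs searched, AP-1 (TGANTCA, in 6.6% of promoters), CRE (TGACGTCA, 1.6%), the ATF4 element (TGATGNAA, 3.1%), the E-box (CACGTG, 6.3%), E2F (TTTNGCGC, 1.5%) and the p53 half-site (5.6%), do not occur in these windows of the 10 ligands. These matches describe letters in a window and are not measured sites. Of the genes whose promoters are not printed, PVR (chr19:44643910-44666162) and NECTIN2 (chr19:44846297-44889223) lie near each other on the plus strand, ULBP2 (chr6:149942014-149949235, plus strand) and ULBP3 (chr6:150061053-150069121, minus strand) lie in the cluster of ULBP1, and CD47 lies at chr3:108043091-108091031 on the minus strand.

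Values were read as FPKM, reads scaled to transcript length and to the mapped reads of the library. This unit was inferred from the values and no source names it, so comparisons of level between genes, sums over genes and ratios of genes hold only if it is right. Differences were tested with limma on log2(FPKM + 1) over all genes that reached an FPKM of 1 in 3 or more of a line's 6 libraries, and a gene is called where its Benjamini-Hochberg adjusted p was under 0.05. Fold changes on this scale understate the change of low genes. The depth of the libraries is unknown because no counts were used here, and in bulk RNA fewer expressing cells and less RNA per cell cannot be told apart.

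One irradiated library of BEAS-2B cells stood apart from the other 2. CDKN1A, a p53 target that halts the cell cycle, was at 79.93, 86.36 and 86.08 FPKM in the BEAS-2B controls and at 309.73, 102.24 and 487.79 in irradiated replicates 1, 2 and 3. MDM2, the p53 target that limits p53, was at 17.46 to 18.86 in the controls and at 47.49, 16.17 and 87.83 in the irradiated libraries, so replicate 2 was near the controls for both. The values of the library labelled irradiated replicate 2 thus go against its label for these genes, and whether it was irradiated and labelled correctly is in doubt and was not tested. Every BEAS-2B value that includes it carries that doubt. The response of each ligand in BEAS-2B cells is given with and without it, whereas BEAS-2B fits under other processing are given only with it. In A549 cells CDKN1A rose from 103.2 to 303.0 FPKM and MDM2 from 26.59 to 92.69 in group means, with every irradiated library above every control, whereas in H446 cells the means were 73.4 and 67.29 for CDKN1A and 11.63 and 10.73 for MDM2 and neither was called (adjusted p = 0.0642 and 0.2). Of 5 epithelial markers, the keratin KRT8 was at 500.3 FPKM or above in all libraries. Control means in BEAS-2B, H446 and A549 cells were 482.6, 1207.0 and 352.9 for KRT18 and 9.797, 2.293 and 26.16 for KRT19. EPCAM was at control means of 2.37 in BEAS-2B and 1.107 in H446 cells, and was too low to be tested in A549 cells. CDH1 was tested only in A549 cells, at a control mean of 7.053. PTPRC, the defining marker of leukocytes, was at 0.09 FPKM or below in all libraries. Of 9 immune markers 8 were in the table. In A549 cells they summed to 26.8 to 30.4 FPKM in the controls and 31.0 to 35.2 after 10 Gy. Nearly all of this was CD68, a lysosomal gene that other cells also express. In BEAS-2B cells the sum was 17.6 to 19.4 in the controls and 17.6 to 23.3 after 10 Gy. There CD14 was at means of 8.127 and 8.357, beside CD68 at 9.743 and 11.04. In H446 cells the sum was 8.3 to 9.93 in the controls and 8.93 to 11.5 after 10 Gy. The 5 fibroblast markers summed to between 8.46 and 25.2 FPKM over all libraries. Of 5 neuroendocrine markers, 3 were in the table, and in H446 cells these 3 (SYP, CHGA and NCAM1) summed to between 0.11 and 0.29 FPKM, so the small cell label is not borne by these markers and the line is called here by its name alone. Library totals lay between 461255 and 529936 FPKM.

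Without irradiation the 3 lines carried different sets of ligands. H446 cells had the most MICA and TNFSF9 and almost no CD274, A549 cells the most ULBP1, PVR, NECTIN2 and CD274, and BEAS-2B cells the most CD47 and ULBP2. Between any 2 lines 9 of the 10 ligands were called, but so were most genes: 81.1% of 13071 genes between H446 and BEAS-2B (35.2% higher and 45.9% lower in H446), 83.8% between A549 and BEAS-2B (38.3% higher and 45.4% lower in A549) and 83.2% between H446 and A549 (40.5% higher and 42.7% lower in H446). The share of ligands that differed was thus close to the background, and what these comparisons give is the size and order of the levels. CD274 was below the filter in H446 cells and entered these comparisons through the other lines.

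**Figure D1:**
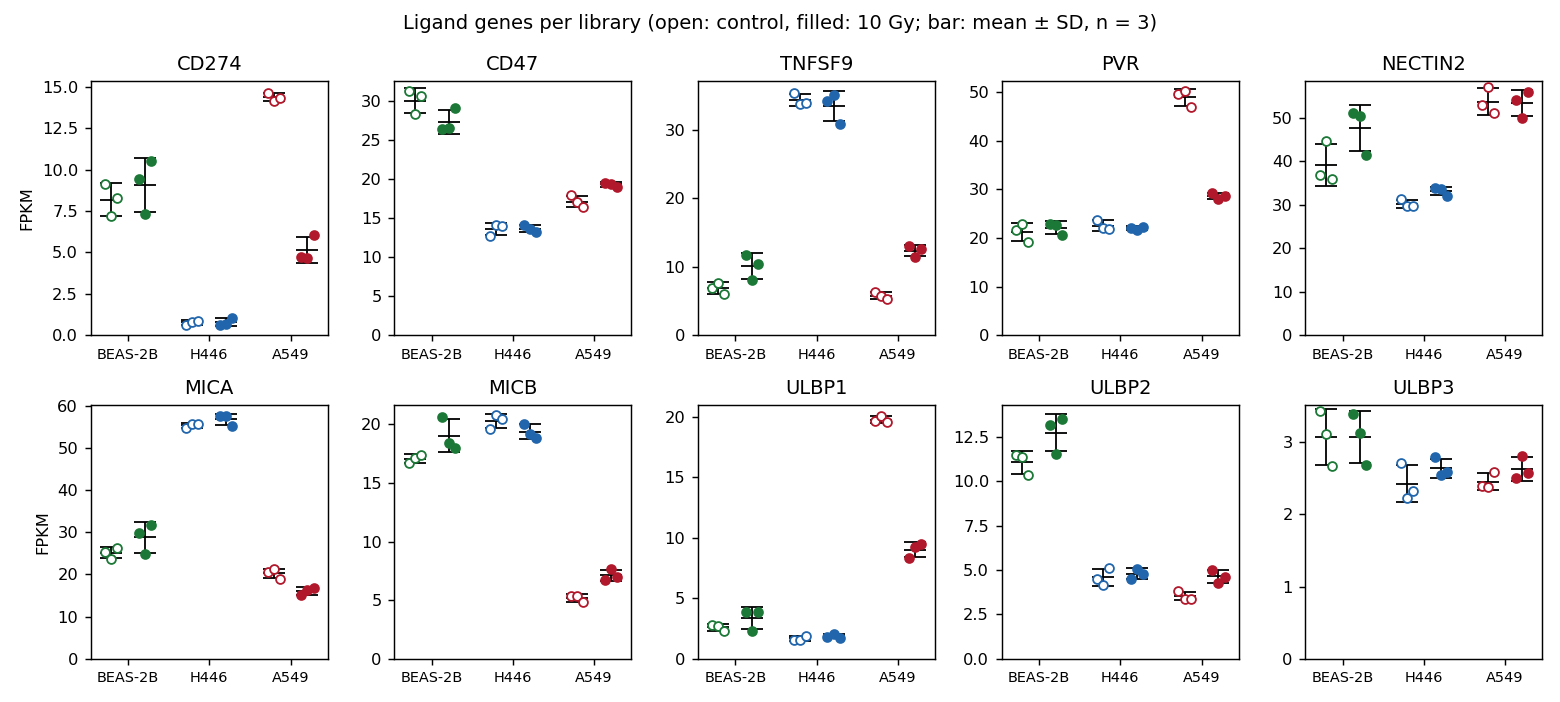
FPKM of each ligand gene (vertical axes, each from 0) in every library of the 3 lines, control libraries as open and irradiated libraries as filled circles, with a bar at the mean and whiskers of 1 SD (n = 3 per group). In A549 cells the groups separate for CD274, TNFSF9, PVR, MICA, MICB, ULBP1, ULBP2 and CD47, and H446 cells stay near 0 for CD274 and near 55 FPKM for MICA.

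CD274 was at 14.64, 14.16 and 14.32 FPKM in the A549 controls, at 9.11, 7.17 and 8.29 in the BEAS-2B controls and at 0.61, 0.8 and 0.88 in the H446 controls. The 3 lines did not overlap. A549 controls were 1.75 times as high as BEAS-2B controls (log2 fold change 0.75, SE 0.12, adjusted p = 1.25e-05), and the H446 mean was 0.0531 times the A549 mean (log2 fold change -3.13, SE 0.12). TNFSF9 was highest where CD274 was lowest: the H446 controls were at 35.33, 33.73 and 33.9 FPKM against 6.93, 7.66 and 6.03 in BEAS-2B and 6.31, 5.75 and 5.21 in A549. H446 stood 4.99 times above BEAS-2B (log2 fold change 2.17, SE 0.10), whereas BEAS-2B and A549 overlapped (log2 fold change of A549 against BEAS-2B -0.22, SE 0.10, adjusted p = 0.0557). That comparison sat at the threshold, and for TNFSF9 the adjusted p was 0.0218 in a fit of the 9 control libraries alone. CD47 was highest in BEAS-2B at 31.31, 28.3 and 30.61 FPKM, followed by A549 at 17.91, 17.02 and 16.42 and H446 at 12.74, 14.06 and 13.97, with no overlap between neighbours in this order.

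PVR was at 49.56, 50.33 and 46.99 FPKM in the A549 controls, 2.31 times the BEAS-2B mean (log2 fold change 1.17, SE 0.06, adjusted p = 7.14e-13). The BEAS-2B controls at 21.64, 22.78 and 19.26 and the H446 controls at 23.75, 22.04 and 21.87 overlapped for PVR (log2 fold change of H446 0.09, 95% interval -0.04 to 0.21, adjusted p = 0.181). PVR was called higher in H446 by limma without BEAS-2B control replicate 2 (0.14, adjusted p = 0.0445). It was also called with the GC trend removed (0.12, adjusted p = 0.0313) and with libraries scaled to equal totals (0.19, adjusted p = 0.0215). NECTIN2 ran in the order A549 (52.87, 57.02 and 51.06 FPKM), BEAS-2B (36.78, 44.6 and 35.87) and H446 (31.25, 29.67 and 29.59), and each step was called. In BEAS-2B and A549 controls NECTIN2 had the highest mean FPKM of the 10 ligands, at 39.08 and 53.65.

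Among the NKG2D ligands, MICA was at 54.65, 55.62 and 55.69 FPKM in the H446 controls, at 25.4, 23.71 and 26.35 in BEAS-2B and at 20.57, 21.21 and 19.02 in A549, 3 levels without overlap. Its paralog MICB was at 19.63, 20.78 and 20.43 in H446, at 16.68, 17.12 and 17.41 in BEAS-2B and at 5.34, 5.39 and 4.83 in A549, so H446 stood 3.91 times above A549 (log2 fold change 1.78, SE 0.06). For both genes the order was H446, BEAS-2B, A549. ULBP1 was the reverse: the A549 controls at 19.62, 20.06 and 19.55 FPKM were 7.63 times the BEAS-2B mean (2.78, 2.68 and 2.3; log2 fold change 2.53, SE 0.11), and the H446 controls were at 1.57, 1.59 and 1.9. ULBP2 was highest in BEAS-2B at 11.44, 11.38 and 10.32 FPKM, against 4.48, 4.16 and 5.09 in H446 and 3.8, 3.38 and 3.39 in A549. ULBP3 was low in all lines, at 3.43, 3.11 and 2.67 in BEAS-2B, 2.71, 2.23 and 2.32 in H446 and 2.39, 2.38 and 2.59 in A549. The H446 and A549 controls did not differ beyond their spread for ULBP3 (log2 fold change -0.02, 95% interval -0.18 to 0.15). The calls of BEAS-2B above H446 (adjusted p = 0.00818) and A549 (0.0119) were lost without BEAS-2B control replicate 1 (0.0558 and 0.0761). Both were also lost with libraries scaled to equal totals (0.0792 and 0.051), and the call against H446 with quantile normalization (0.0549).

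The 3 further NKG2D ligand genes, RAET1E, RAET1G and RAET1L, were highest in H446 cells. RAET1E was at 29.08, 27.21 and 28.58 FPKM in the H446 controls against means of 0.3667 in BEAS-2B and 0.75 in A549, and RAET1G at 28.97, 25.86 and 28.85 against 1.35 and 0.4433. RAET1L was at 1.52, 0.8 and 1.09 in the H446 controls against means of 0.03 and 0.01667. All 3 genes were called higher in H446 than in BEAS-2B and A549, beside 35.2% and 40.5% of all genes called higher. RAET1E and RAET1L passed the filter only through H446, where they are high, so their calls add no support to this count. The deposited values cannot show how reads were divided among these copies: 29.38% of the 50-base words of ULBP2 transcripts also occur in RAET1L and 11.62% in RAET1G, 6.85% of those of ULBP1 in RAET1K and 12.35% of those of ULBP3 in RAET1K, against 1.89% of those of MICA in MICB and none of those of CD274 or TNFSF9. ULBP2 and ULBP3 values are uncertain to that extent.

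Irradiation changed the ligands of A549 cells in both directions. CD274, ULBP1, PVR and MICA fell and TNFSF9, MICB, ULBP2 and CD47 rose, 8 of 10 genes. In these 8 the irradiated and control libraries did not overlap. The share of all genes without overlap was not counted in any line, so a lack of overlap only describes the values. Of all 11993 genes tested in A549 cells 51.7% were called, 25.3% higher and 26.4% lower, so calls were frequent in this line. The median log2 fold change was 0.03 over the ligands and -0.004 over all genes tested. By size, the absolute log2 fold changes of CD274, ULBP1 and TNFSF9 were exceeded by those of 41, 88 and 115 genes, and that of PVR by 259.

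CD274 was at 14.64, 14.16 and 14.32 FPKM in the controls and at 4.7, 4.65 and 6.04 after 10 Gy. Every irradiated A549 library was thus below the lowest BEAS-2B control for CD274, whereas every A549 control was above the highest. The mean fell to 0.357 of its control level (log2 fold change -1.33, SE 0.08, adjusted p = 8.77e-08). TNFSF9 went the other way, from 6.31, 5.75 and 5.21 FPKM to 13.02, 11.42 and 12.57, a 2.14-fold rise (log2 fold change 0.98, SE 0.07, adjusted p = 4.87e-07). CD47 moved little, from 17.91, 17.02 and 16.42 to 19.54, 19.44 and 18.98 FPKM, a 1.13-fold rise (log2 fold change 0.17, SE 0.05, adjusted p = 0.0107).

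PVR and NECTIN2 share the receptors DNAM-1 and TIGIT. In A549 cells PVR fell from 49.56, 50.33 and 46.99 FPKM to 29.27, 28.05 and 28.6, to 0.585 of the control mean (log2 fold change -0.75, SE 0.04, adjusted p = 4.63e-08). NECTIN2 was at 52.87, 57.02 and 51.06 in the controls and at 53.99, 50.01 and 55.88 after 10 Gy, with overlapping groups (log2 fold change -0.01, 95% interval -0.12 to 0.10). The ratio of the mean NECTIN2 level to the mean PVR level was 1.1 in the controls and 1.86 after irradiation.

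ULBP1 fell from 19.62, 20.06 and 19.55 FPKM to 8.29, 9.22 and 9.47 in A549 cells, to 0.456 of the control mean (log2 fold change -1.06, SE 0.06, adjusted p = 3.03e-08). MICA fell from 20.57, 21.21 and 19.02 to 15.09, 16.23 and 16.82 (log2 fold change -0.32, SE 0.06, adjusted p = 0.000486), whereas MICB rose from 5.34, 5.39 and 4.83 to 6.72, 7.65 and 7.02 (log2 fold change 0.39, SE 0.07, adjusted p = 0.000422). The MICA and MICB promoters printed above are the closest pair of ligand promoters compared. ULBP2 rose from 3.8, 3.38 and 3.39 to 5.02, 4.26 and 4.62 (log2 fold change 0.32, SE 0.07, adjusted p = 0.00362). ULBP3 was at 2.38 to 2.59 FPKM before and 2.5 to 2.81 after 10 Gy and was not called (adjusted p = 0.446). The 5 NKG2D ligand genes summed to 51.72, 52.42 and 49.38 FPKM in the controls and to 37.62, 40.17 and 40.5 after irradiation, lower in every irradiated library (an exact permutation test of 3 against 3 cannot give a p below 0.1). ULBP1 made up 38.6% ± 0.876 (SD, n = 3) of this sum in the controls and 22.8% ± 0.688 after 10 Gy, MICB 10.1% ± 0.302 and 18.1% ± 0.876, and MICA 39.6% ± 0.986 and 40.7% ± 0.75.

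**Figure D2:**
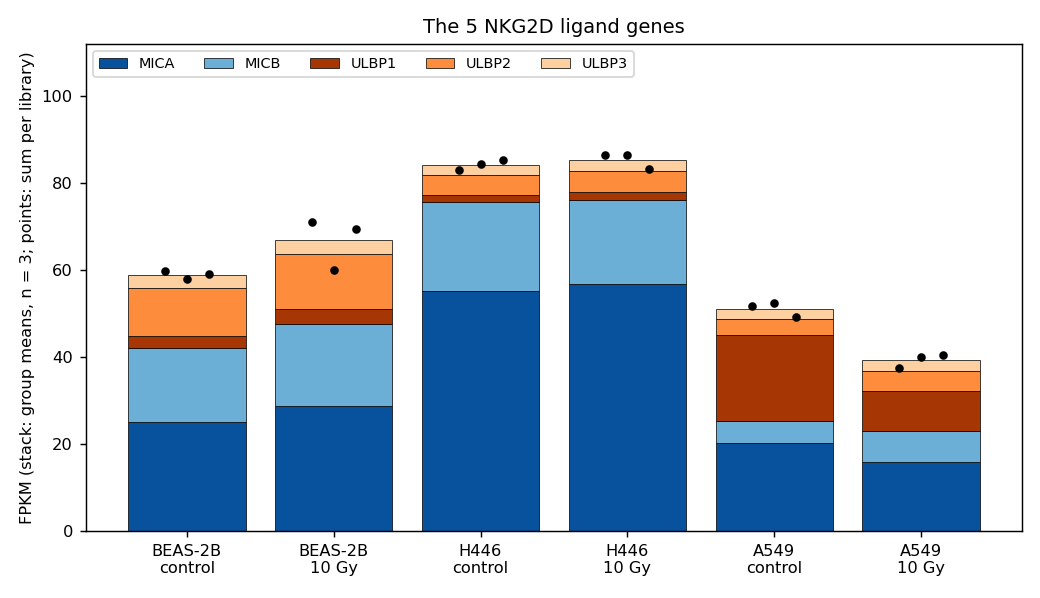
Stacked mean FPKM of MICA, MICB, ULBP1, ULBP2 and ULBP3 in each group (vertical axis from 0, n = 3), with the sum in each library as a black point. The A549 sums drop from 49.38 to 52.42 in the controls to 37.62 to 40.5 after 10 Gy, mostly in the ULBP1 band, and MICA is the widest band in every group.

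In H446 cells the ligands moved little. Of 9 ligands tested NECTIN2 alone was called, from 31.25, 29.67 and 29.59 FPKM in the controls to 33.79, 33.5 and 32.07 after 10 Gy (log2 fold change 0.13, SE 0.04, adjusted p = 0.0272), against 38.4% of all 11479 genes tested, 14.8% higher and 23.6% lower. With quantile normalization the split of all calls moved from 1698 higher of 4407 to 2171 of 4354. The groups did not overlap, but the NECTIN2 call was lost without any of 4 libraries, irradiated replicates 1 (adjusted p = 0.0539) and 2 (0.0682) and control replicates 2 (0.0965) and 3 (0.0962). MICA was at 54.65, 55.62 and 55.69 FPKM and then 57.46, 57.58 and 55.28 (log2 fold change 0.04, 95% interval -0.04 to 0.11), and TNFSF9 at 35.33, 33.73 and 33.9 and then 34.24, 35.05 and 30.91 (log2 fold change -0.04, 95% interval -0.15 to 0.07). For MICB, ULBP1, ULBP2, ULBP3, PVR and CD47 the H446 groups also overlapped, with log2 fold changes between -0.06 and 0.10. CD274 failed the filter in H446 cells, at 0.61, 0.8 and 0.88 FPKM before and 0.61, 0.68 and 1.06 after 10 Gy (exact permutation test, two-sided, p = 1.0 over 20 arrangements). The 2 H446 groups also differed in how their values run with the GC content of the transcript, with Spearman coefficients of 0.35 to 0.46 in the controls and -0.5 to -0.11 in the irradiated libraries. NECTIN2, at 59.41% GC, has the highest GC content of the 10 ligands. With that trend removed, NECTIN2 and MICA were called (MICA log2 fold change 0.10, SE 0.03, adjusted p = 0.0404) beside 32.5% of all genes. The NKG2D ligand sum was 84.28 ± 1.198 FPKM in the controls and 85.43 ± 1.898 after 10 Gy (SD, n = 3).

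**Figure D3:**
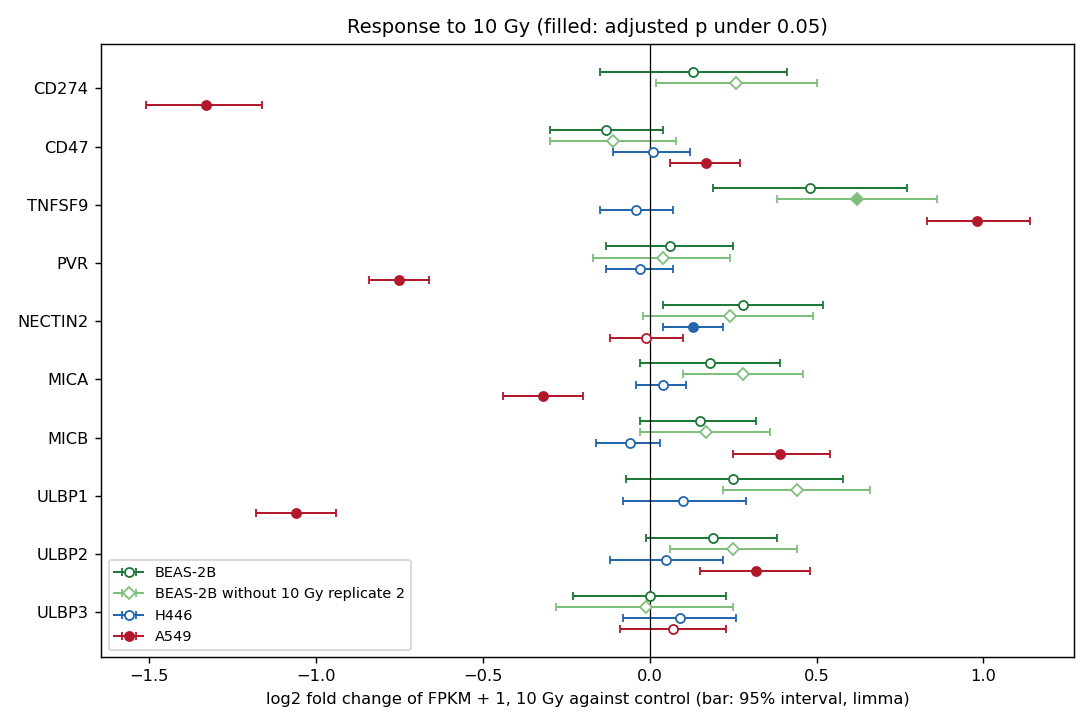
Log2 fold change of FPKM + 1 after 10 Gy (horizontal axis) with 95% intervals from limma for each ligand in BEAS-2B cells with and without irradiated replicate 2, in H446 and in A549 cells; filled symbols are called at an adjusted p under 0.05. A549 cells span -1.33 for CD274 to 0.98 for TNFSF9, whereas the H446 values lie between -0.06 and 0.13, and CD274 was not tested in H446.

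In BEAS-2B cells no ligand was called, and no gene was: the share called was 0.0% of 11734 genes by limma, with 1446 genes at an unadjusted p under 0.05. TNFSF9 was at 6.93, 7.66 and 6.03 FPKM in the controls and at 11.72, 8.01 and 10.42 after 10 Gy, all irradiated libraries above all controls, with a log2 fold change of 0.48 (SE 0.13, adjusted p = 0.25) exceeded in size by 115 of the 11734 genes. Replicate 2 gave the lowest of the 3 values. In a fit of all 18 libraries, in which the lines share 1 estimate of the spread, TNFSF9 (adjusted p = 0.0126) and NECTIN2 (0.044) were called in BEAS-2B cells, beside 6.44% of 13071 genes. Without irradiated replicate 2, TNFSF9 had a log2 fold change of 0.62 (SE 0.11, adjusted p = 0.0151) and was the one ligand called, against 1.99% of 11680 genes, 1.92% higher and 0.0771% lower.

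ULBP1 followed the same split between BEAS-2B libraries, at 2.78, 2.68 and 2.3 FPKM in the controls and 3.89, 2.3 and 3.83 after 10 Gy, and so did MICA, at 25.4, 23.71 and 26.35 and then 29.91, 24.74 and 31.61. With irradiated replicate 2 both genes overlapped their controls, and without it neither did, with log2 fold changes of 0.44 for ULBP1 (SE 0.10, adjusted p = 0.0594) and 0.28 for MICA (SE 0.08, adjusted p = 0.157). CD274 was at 9.11, 7.17 and 8.29 FPKM and then 9.41, 7.32 and 10.51 (log2 fold change 0.13, 95% interval -0.15 to 0.41). Without irradiated replicate 2 its groups did not overlap either, with a log2 fold change of 0.26 (95% interval 0.02 to 0.50, adjusted p = 0.368). ULBP2 was at 10.32 to 11.44 before and 11.52 to 13.47 after 10 Gy, and MICB at 16.68 to 17.41 before and up to 20.64 after, both without overlap and neither called (adjusted p = 0.414 and 0.466). NECTIN2 was at 36.78, 44.6 and 35.87 and then 51.06, 50.43 and 41.5, CD47 at 28.3 to 31.31 and then 26.43 to 29.1, PVR at 19.26 to 22.78 and then 20.6 to 22.92, and ULBP3 at 2.67 to 3.43 and then 2.68 to 3.39, all with overlapping groups. The Spearman coefficient of a library's values with transcript GC content was -0.63, 0.01 and -0.38 in the 3 BEAS-2B controls and 0.45, 0.7 and -0.31 in the irradiated libraries. This spread was wider than in H446 or A549 cells. Its part in the NECTIN2 values of single libraries was not tested. NECTIN2 had a log2 fold change of 0.28 (adjusted p = 0.332), and of 0.18 with the GC trend removed (adjusted p = 0.52). Without irradiated replicate 2 the log2 fold changes were 0.25 for ULBP2, 0.24 for NECTIN2, 0.17 for MICB, 0.04 for PVR, -0.01 for ULBP3 and -0.11 for CD47, and none of these was called. The NKG2D ligand sum was 58.0 to 59.73 FPKM in the controls and 71.01, 60.1 and 69.59 in irradiated replicates 1, 2 and 3. Over the 10 ligands the median log2 difference from the control mean was 0.24, 0.04 and 0.18 in these 3 libraries. CDKN1A (1.87, 0.28 and 2.52) was also lowest in replicate 2. Single ligands did not all share this order. Replicate 2 was not the lowest for PVR (0.11, 0.1 and -0.04), NECTIN2 (0.38, 0.37 and 0.09) or MICB (0.26, 0.1 and 0.07). Nor was it for ULBP3 (0.11, 0.03 and -0.14) or CD47 (-0.18, -0.17 and -0.04). The part of this library in the BEAS-2B results was measured only by leaving it out.

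**Figure D4:**
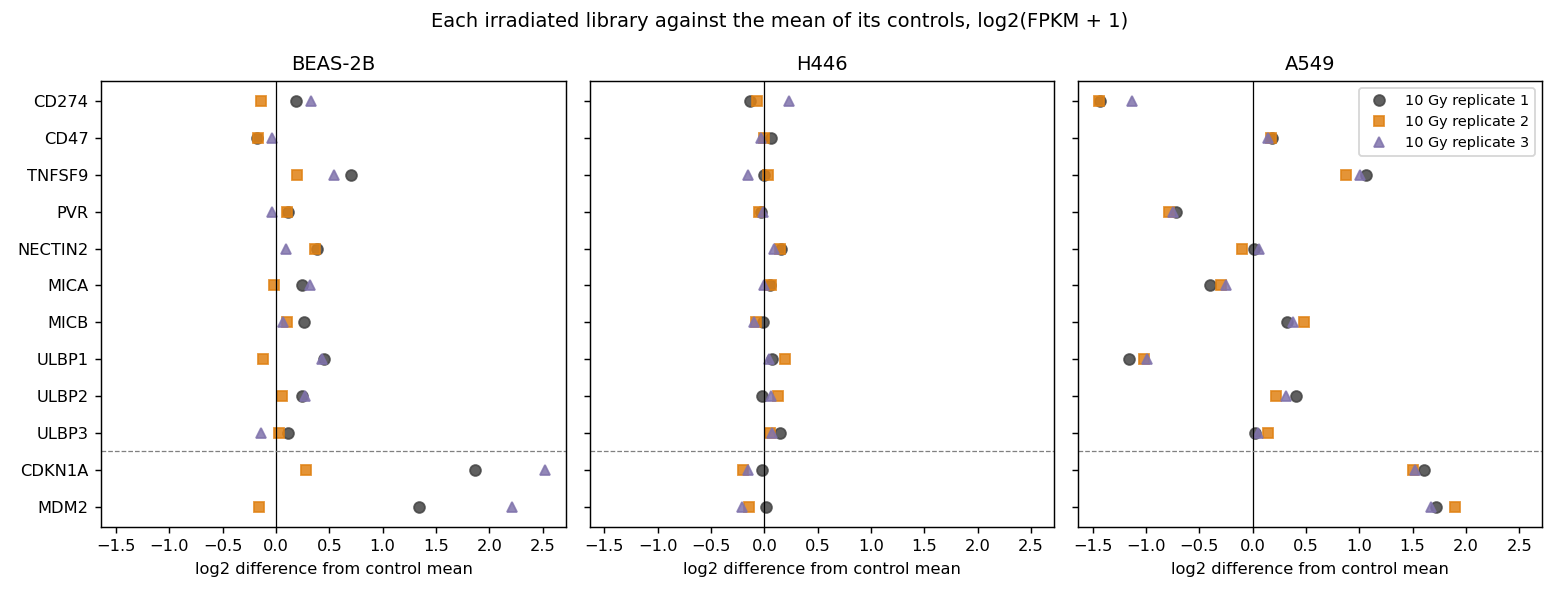
Log2 difference of FPKM + 1 between each irradiated library and the mean of its line's controls (horizontal axes), for the 10 ligands and, below the dashed line, for CDKN1A and MDM2. BEAS-2B replicate 2 (orange squares) lies at 0.28 for CDKN1A and -0.16 for MDM2, apart from the other BEAS-2B libraries, whereas the 3 A549 libraries share their sign for CDKN1A, MDM2 and each of the 8 ligands called there.

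The difference between lines was then tested itself, in 1 fit of all 18 libraries. Comparisons that share a line share its libraries. Between BEAS-2B and A549 cells the response differed for 7 of 10 ligands, against 30.6% of 13071 genes. The response of BEAS-2B minus that of A549 was 1.46 for CD274 (SE 0.17, adjusted p = 6.45e-06), 1.31 for ULBP1 (SE 0.16, adjusted p = 9.92e-06), 0.81 for PVR (SE 0.08, adjusted p = 1.34e-06) and 0.50 for MICA (SE 0.10, adjusted p = 0.00116), genes that fell in A549 cells. It was -0.50 for TNFSF9 (adjusted p = 0.0137), -0.30 for CD47 (0.00801) and -0.25 for MICB (0.0337). Without BEAS-2B irradiated replicate 2 the MICB call was lost (adjusted p = 0.0637) and the other 6 stayed, beside 30.0% of genes. Their values were then 1.59 for CD274, 1.5 for ULBP1, 0.79 for PVR, 0.6 for MICA, -0.36 for TNFSF9 and -0.28 for CD47. The MICB call was also lost without any of BEAS-2B irradiated replicate 3, BEAS-2B control replicate 3, A549 irradiated replicate 2 and A549 control replicate 3 (adjusted p of 0.0638 to 0.0967). NECTIN2 (0.29, adjusted p = 0.0614) was called without BEAS-2B irradiated replicate 3 (0.38, adjusted p = 0.00641, beside 36.1% of genes) or BEAS-2B control replicate 2 (0.39, adjusted p = 0.0074, beside 32.9%).

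Between A549 and H446 cells the response was called different for 6 of 10 ligands, against 34.6% of genes. One of the 6, CD274, was below the filter in H446 cells, where a level this low keeps its response near 0 on the log2(FPKM + 1) scale, so its call adds no support to the count. The response of A549 minus that of H446 was -1.34 for CD274 (SE 0.17, adjusted p = 1.22e-05), -1.16 for ULBP1 (SE 0.16, adjusted p = 3e-05), -0.72 for PVR (SE 0.08, adjusted p = 4.5e-06) and -0.36 for MICA (SE 0.10, adjusted p = 0.0102), and 1.02 for TNFSF9 (SE 0.14, adjusted p = 4.14e-05) and 0.46 for MICB (SE 0.09, adjusted p = 0.000497). With the GC trend removed 9 ligands were called, beside 37.2% of genes. Those added were NECTIN2 (-0.23, adjusted p = 0.0413), CD47 (0.25, 0.00789) and ULBP2 (0.29, 0.0392). Between BEAS-2B and H446 cells TNFSF9 alone differed, by 0.52 (SE 0.14, adjusted p = 0.0174), against 22.7% of genes, and its call was lost without H446 irradiated replicate 3 (0.47, adjusted p = 0.0502) and with the GC trend removed (0.37, adjusted p = 0.116). Without BEAS-2B irradiated replicate 2, TNFSF9 (0.66, adjusted p = 0.00109), ULBP1 (0.34, adjusted p = 0.0328) and MICA (0.24, adjusted p = 0.0368) differed, beside 18.5% of genes. Without BEAS-2B irradiated replicate 3, TNFSF9 and MICB (0.25, adjusted p = 0.0352) did, beside 34.7% of genes. For NECTIN2 the response of BEAS-2B minus that of H446 was 0.15, and -0.04 with the GC trend removed. In this fit NECTIN2, ULBP2 and ULBP3 were called in no pair of lines.

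Other ligands and regulators of the same pathways are given by list, each called gene at an adjusted p under 0.05 over all genes. Their counts are descriptions to be read beside the 51.7% of all genes called in A549 cells (25.3% higher, 26.4% lower) and the 38.4% called in H446 cells (14.8% higher, 23.6% lower). Nothing particular to a list is drawn from them. Among other ligands listed for T cells, a list that also counts the macrophage ligand CD24, 5 of 12 tested rose and 2 fell in A549 cells. This stands beside the 51.7% of all genes. For 3 of the 5 that rose, CEACAM1, ICOSLG and TNFSF14, no control library reached 1 FPKM, so they entered the test only through the irradiated group and their calls add no support to the count. PDCD1LG2, the second PD-1 ligand, fell with CD274, from a mean of 4.283 to 1.993 FPKM (log2 fold change -0.82, SE 0.07), and CD70, the ligand of CD27, rose with TNFSF9, from 22.66 to 41.12 (log2 fold change 0.84, SE 0.09). CD24, a ligand of Siglec-10 on macrophages, rose from 104.7 to 175.7 in A549 cells (log2 fold change 0.74, SE 0.04) and from 67.86 to 98.69 in H446 cells (log2 fold change 0.53, SE 0.04). In H446 cells 2 of 7 tested rose and none fell, beside 38.4% of all genes, and PDCD1LG2 was the other, from 0.9167 to 1.467 FPKM (log2 fold change 0.36, SE 0.10). With 1 control library at 1 FPKM or above, it too needed the irradiated group to pass the filter, and its call adds no support to the count. Named here after their values were seen, the other called genes of A549 cells, all under 5 FPKM, were CEACAM1 (means of 0.43 and 1.53 FPKM), ICOSLG (0.9267 and 2.013), TNFSF14 (0.48 and 1.277) and TNFSF4 (1.487 and 0.9267, with 1 irradiated library at 1 FPKM or above), each before and after 10 Gy. TNFSF4 needed its controls to pass the filter, so its call adds no support to the count of 2 that fell.

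Among other ligands and adhesion partners of NK cell receptors, 3 of 9 tested rose and 1 fell in A549 cells, and 4 rose and 3 fell of 9 in H446 cells, beside 51.7% and 38.4% of all genes. The 1 that fell in A549 cells was the adhesion gene ICAM1, at 1.3, 1.27 and 1.14 FPKM in the controls and 0.48, 0.41 and 0.56 after 10 Gy, against a mean of 72.44 in the BEAS-2B controls. It passed the filter in A549 cells only through its controls, so its call adds no support to the count. In A549 cells HLA-E, a ligand of the inhibitory receptor NKG2A, rose from 49.75 to 55.2 (log2 fold change 0.15, SE 0.05) and CADM1, a ligand of CRTAM, from 21.97 to 24.08 (log2 fold change 0.13, SE 0.05). In H446 cells CLEC2B, a ligand of NKp80, rose from 5.267 to 8.467 (log2 fold change 0.60, SE 0.09), NECTIN3 from 14.7 to 18.88 (log2 fold change 0.34, SE 0.04) and CD58, the ligand of CD2, from 46.95 to 56.2 (log2 fold change 0.25, SE 0.05). Of the RAET1 genes, 3 were tested in H446 and 1 in BEAS-2B, and none was called. The other genes called were named after their values were seen: NECTIN1 rose in A549 cells (0.44) and fell in H446 cells (-0.48), HLA-E rose in H446 cells (0.14), and NCR3LG1 (-0.21) and BAG6 (-0.14) fell in H446 cells, on the log2 scale. In H446 cells RAET1G was at 28.97, 25.86 and 28.85 FPKM before and 32.72, 31.19 and 28.98 after 10 Gy (adjusted p = 0.0638).

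Of 14 genes that regulate CD274 or CD47, from the interferon receptor to protein stability, 4 rose and 4 fell in A549 cells, beside 51.7% of all genes. IRF1, the interferon-induced factor that drives CD274 transcription, fell from 36.68 to 25.36 FPKM (log2 fold change -0.52, SE 0.05), SPOP, an adaptor in PD-L1 ubiquitination, from 28.08 to 17.84 (log2 fold change -0.63, SE 0.05), and STAT3 rose from 57.72 to 78.18 (log2 fold change 0.43, SE 0.04). The other genes called in A549 cells, named after their values were seen, were CMTM4 (log2 fold change 0.35), CMTM6 (0.32) and JAK2 (0.23), which rose, and THBS1 (-0.42) and IFNGR2 (-0.27), which fell. In H446 cells 3 of 14 rose and 1 fell, beside 38.4% of all genes, with THBS1, a further ligand of CD47, up (log2 fold change 0.36, SE 0.05), CMTM4, which stabilizes PD-L1, down (-0.36, SE 0.06) and the kinase JAK1 up (0.23, SE 0.04), and IFNGR2 (0.12), named after its value was seen, up as well. Of genes for shedding of ligands, 1 of 5 rose and 2 fell in A549 cells and 2 of 4 rose in H446 cells, beside the same 51.7% and 38.4%. The protease ADAM10, which cleaves MICA among other targets, rose in both, from 48.99 to 60.29 FPKM in A549 (log2 fold change 0.29, SE 0.04) and from 53.28 to 64.55 in H446 (0.27, SE 0.04). ADAM9 fell in A549 (-0.16, SE 0.04) and rose in H446 cells (0.21, SE 0.04), and ADAM17 fell in A549 cells (-0.14, SE 0.04). Of the receptor genes of these ligands, 1 of 5 rose and 1 fell in A549 cells and 1 of 4 rose in H446 cells, again beside 51.7% and 38.4% of all genes. SIRPA, the phagocyte receptor of CD47, rose in A549 cells (0.15, SE 0.06). CD226, which encodes DNAM-1, fell there from a mean of 1.65 to 1.23 FPKM and TIGIT rose in H446 cells from 1.883 to 2.573, both named after their values were seen. In BEAS-2B cells no gene of these lists was called, by limma over all genes. Without irradiated replicate 2, IRF1 (24.38 to 36.78 FPKM, log2 fold change 0.58, SE 0.09, adjusted p = 0.00857), CD70 (0.48, SE 0.08, adjusted p = 0.0136) and STAT3 (0.38, SE 0.08, adjusted p = 0.0418) were the genes of these lists called there.

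**Figure D5:**
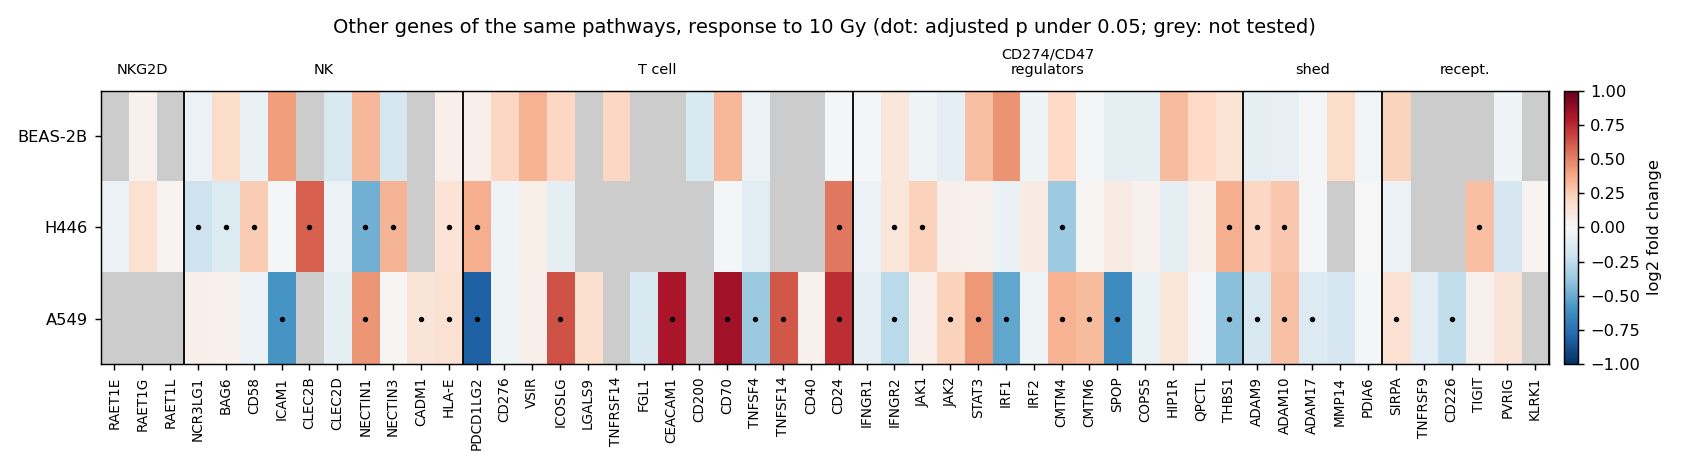
Log2 fold change after 10 Gy (color scale from -1 to 1) of the other ligand, regulator, shedding and receptor genes (columns, grouped by list) in the 3 lines (rows); a dot marks an adjusted p under 0.05 and grey a gene below the filter. CD70, CD24 and CEACAM1 are the reddest cells and PDCD1LG2 the bluest in A549, and the BEAS-2B row has no dot.

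The genes whose levels ran most like a ligand were read off over the 18 libraries, centred within each line, for the 9 ligands with a mean of at least 5 FPKM in 1 group. ULBP3 did not reach that level. These coefficients describe libraries that fall into control and irradiated groups of the same 3 lines. PVR ran most like MYC (Pearson r = 0.983) and NFE2L1 (0.981), CD274 most like RP9 (0.969) and the asparagine synthetase gene ASNS (0.96), and ULBP1 most like AZIN1 (0.977) and the ornithine decarboxylase gene ODC1 (0.974). For MICA they were DDIT3 (0.923) and IL1A (0.921), for MICB PADI2 (0.933) and PARD6G (0.928), for TNFSF9 RALGDS (0.978) and ADAM23 (0.968), for NECTIN2 SUN2 (0.956) and MARK4 (0.941), for ULBP2 GGCX (0.902) and GSDME (0.883), and for CD47 GOLGA8B (0.901) and C12orf50 (0.892). No gene was among the nearest for more than 1 ligand. Over the 6 group means, which mostly follow the lines, the nearest gene reached an r of 0.992 to 1 for each of the 9 ligands, CRCP for CD274 (0.998), SLFNL1 for PVR (0.998), COTL1 for ULBP1 (0.997), USP19 for MICA (0.997), RARRES3 for MICB (0.999) and TLE2 for TNFSF9 (0.998) among them.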

How the data were processed

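RNA-seq values of 18 libraries were re-analysed (3 lines, control and 10 Gy, 3 libraries per group), grouped by their labels. The authors prepared poly(A)-selected libraries and read 50 bases from one end of each fragment (BGISEQ-500). The submitters' processing notes name HISAT2 2.0.4, Bowtie2 2.2.5, RSEM 1.2.12 and hg38, and the annotation is not given in the sources used here. The unit of the deposited values was read as FPKM, since they have 2 decimals and totals that differ between libraries, but no source names the unit. At most 3.22% of values were equal between 2 replicates.

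Values were transformed to log2(FPKM + 1) and tested with limma 3.58.1 (lmFit, eBayes with a trend) in R 4.3.3. Responses were fitted within each line, and differences between lines in 1 fit of 18 libraries with 6 group means over the genes kept by the filter in any line. Standard errors and adjusted p values come from limma. The fits were checked on simulated data. The alternatives were quantile normalization, no trend, other filters, a pseudocount of 0.1, an adjusted p under 0.01, a loess correction for GC content (17850 genes, span 0.5), all 18 libraries or the 9 controls in 1 fit, the replicate number as a block and each library left out. Scaling to equal totals was added after the data were seen.

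The members, the lists and the tests were chosen with earlier results of these data known, so no count here is independent support. All 10 ligands are named, and from the other lists at most 3 called genes per list and line with a mean of at least 5 FPKM in 1 group were named by rule; the further called genes were named after their values were seen. Shared words were counted in GENCODE 29 transcripts, and promoters and positions come from RefSeq (GRCh38.p14). CD48, SIRPG, CD3E, NEUROD1 and INSM1 were not analysed here, and some genes of the lists are not reported here.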

Additional observations from a re-analysis of the deposited data

Results flagged for a closer look

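For 14 values the response to 10 Gy differed between 2 lines by a test of the difference itself (limma, log2 scale). These comparisons share libraries. BEAS-2B minus A549 gave 1.46 for CD274, 1.31 for ULBP1, 0.81 for PVR, 0.50 for MICA, -0.25 for MICB, -0.30 for CD47 and -0.50 for TNFSF9. A549 minus H446 gave -1.34 for CD274, -1.16 for ULBP1, -0.72 for PVR, -0.36 for MICA, 0.46 for MICB and 1.02 for TNFSF9. BEAS-2B minus H446 gave 0.52 for TNFSF9. The value for CD274 in H446 rests on a gene at 1.06 FPKM or below in every library of that line. No group had more than 3 libraries, so single libraries were not tested as outliers.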

How the results depend on the processing

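Of 1574 member values recomputed under other settings, 1493 kept their direction and side of the threshold, 25 passed it newly, 27 lost it and 29 changed sign. No value that changed sign was called in either setting. The 8 calls in A549 cells held in all settings except that CD47 (adjusted p = 0.0107) missed an adjusted p under 0.01.

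Counts of ligands called moved by over 1.5 times for 3 comparisons, and the cause was not tested. For BEAS-2B the count went from 0 to 2 (NECTIN2 and TNFSF9) with a replicate block and to 2 in 1 fit of all 18 libraries, and lay at 0 to 1 with each library left out, 1 without irradiated replicate 2. For H446 it went from 1 to 0 without the trend, to 0 at an adjusted p under 0.01, to 0 in 1 fit of all libraries and to 2 with the GC correction, and lay at 0 to 1 with each library left out. For the response of BEAS-2B minus H446 it went from 1 to 0 with the GC correction and to 0 at an adjusted p under 0.01, and lay at 0 to 3 with each library left out. For A549 minus H446 it went from 6 to 9 with the GC correction. The labels do not say whether same-numbered libraries were paired. Same-numbered control and irradiated libraries correlated at -0.125 to 0.324 in BEAS-2B, 0.01 to 0.19 in H446 and -0.099 to 0.01 in A549. Not every library correlated best with its own number. These are correlations of deviations from means of 3 libraries, so they cannot decide whether the libraries were paired. In BEAS-2B minus A549 the block lost MICB (adjusted p = 0.0509) and called NECTIN2 (0.29, adjusted p = 0.0319), which left the count at 7, and it called TNFSF9 in A549 against BEAS-2B controls (adjusted p = 0.0422).

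The sign changes were small. With the GC correction they were PVR (-0.02) in BEAS-2B, TNFSF9 (0.04), CD47 (-0.1) and PVR (0.05) in H446, and NECTIN2 (-0.04), CD47 (0.06) and PVR (-0.05) in BEAS-2B minus H446. With equal totals they were ULBP3 in BEAS-2B (0.01) and in H446 against A549 (0.02), and with quantile normalization NECTIN2 in A549 (0.03) and ULBP3 in H446 against A549 (0.15). With each library left out, the ranges that crossed 0 were -0.01 to 0.11 for PVR and -0.07 to 0.07 for ULBP3 in BEAS-2B, -0.03 to 0.03 for CD47, -0.05 to 0.01 for PVR, -0.07 to 0.01 for TNFSF9 and -0.00058 to 0.12 for ULBP2 in H446, -0.04 to 0.03 for NECTIN2 in A549, and for ULBP3 -0.08 to 0.02 in H446 against A549 and -0.08 to 0.02 in A549 minus H446.

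Counts over all genes moved by over 1.5 times as follows. For BEAS-2B the count of 0 became 439 with the replicate block, 842 in 1 fit of all libraries, 1 with no filter and 233 without irradiated replicate 2. For BEAS-2B minus H446 the count of 2971 became 1491 with the GC correction, 4532 without BEAS-2B irradiated replicate 3 and 1811 without BEAS-2B control replicate 1. At an adjusted p under 0.01, 2529 of 4407 genes were left for H446, 1208 of 2971 for BEAS-2B minus H446, 2308 of 3999 for BEAS-2B minus A549 and 2824 of 4526 for A549 minus H446. With 3 libraries per group and unknown depth, a difference that missed the threshold is not shown to be absent.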
